A study of Mus musculus with 8 samples.

Results

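The mouse mitochondrial genome carries 37 genes of the 41214 that were counted, 13 for proteins, 2 for ribosomal RNAs (rRNA) and 22 for transfer RNAs (tRNA). They were taken as all genes annotated on chromosome M, whose symbols start with mt-. RNA was sequenced from total bone marrow (BM) of 8 C57BL/6 mice in 4 groups of 2. Gfi1 KO mice lack Gfi1, and Gfi1 KD mice carry a human GFI1 cDNA knocked in at the Gfi1 locus that is expressed at a low level. At sampling, age was 39 and 42 days for young KD, 48 and 44 days for young KO, 158 and 101 days for old KO, and 187 and 78 days for sick KD. The labels give AML for the sick KD mice, and the study describes their disease as a myeloproliferative disease (MPN). Sick KD and old KO mice therefore differ in genotype and in disease, whereas sick KD and young KD mice differ in age and in disease, and these cannot be told apart. There was no wild type group, and 2 mice per group are few.

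Mitochondrial DNA is transcribed from both strands into long precursors by the RNA polymerase Polrmt with the factors Tfam and Tfb2m. The tRNAs lie between the other genes and are cut out, which frees the mRNAs and rRNAs. Most of the mRNAs then receive a short poly(A) tail from the polymerase Mtpap, and the Lrpprc and Slirp proteins keep them stable. The protein genes encode subunits of complexes I, III, IV and V of oxidative phosphorylation, and the rRNAs form the mitochondrial ribosome that translates them. The libraries were made with a stranded poly(A) kit, so that RNA with a short tail or none is captured poorly, and levels of mRNA, rRNA and tRNA genes are not comparable as amounts of RNA.

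Libraries held 26642067 to 42679114 counts on genes. The mouse Gfi1 gene had 13.3 to 29.7 CPM (counts scaled to library size with TMM factors) in the libraries labelled KO and 5.49 to 7.15 in those labelled KD. Gfi1 counts thus do not check the labels, and each direction given here rests on them. The 2 sick KD libraries stood apart from the other 6. Reads aligned once but outside any gene were 42.0% and 38.8% of uniquely aligned reads in them and 26.9% to 33.8% in the others. A different number of cells with many mitochondria and a different level of mitochondrial RNA per cell cannot be told apart in bulk BM.

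Counts were found on only part of the mitochondrial genome. Of the 13 protein genes, 7 had at least 100 counts in every library, namely mt-Nd1, mt-Nd2, mt-Nd4, mt-Nd5 and mt-Nd6 (complex I), mt-Cytb (complex III) and mt-Co1 (complex IV). Both rRNA genes, mt-Rnr1 (12S) and mt-Rnr2 (16S), did so too. The other 6 protein genes, mt-Co2 and mt-Co3 (complex IV), mt-Atp6 and mt-Atp8 (complex V), and mt-Nd3 and mt-Nd4l (complex I), never exceeded 12 counts in a library. Of the 22 tRNA genes, 17 had 0 counts in all 8 libraries, which allows 0.0682 to 0.121 CPM in a library (3 counts, counting error only). The largest tRNA gene by counts was mt-Tm (tRNA for methionine), with 11 and 23 counts in sick KD, 7 and 9 in old KO, 10 and 6 in young KO and 7 and 4 in young KD.

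The 6 protein genes with few counts are neighbours. They lie, with 5 tRNA genes, wholly inside one stretch of the mitochondrial genome, chrM:6390-11042 (GRCm38), which has a copy in the same gene order on the minus strand of chromosome 1, chr1:24611535-24616197. In GENCODE M21 that copy is annotated as 7 pseudogenes, Gm29216 (mt-Co1), Gm28661 (mt-Co2), Gm10925 (mt-Atp6), Gm28437 (mt-Co3), Gm28438 (mt-Nd3), Gm10222 (mt-Nd4l) and Gm28439 (mt-Nd4). No pseudogene is annotated there for mt-Atp8, but the copies of its neighbours mt-Co2 and mt-Atp6 are 233 bases apart, against 230 bases between the genes themselves. The first 80 bases of mt-Co2, its chromosome 1 copy and a further copy on chromosome 2 are shown because they carry this point, in lower case with bases that differ from mt-Co2 in capitals (sequences from GENCODE M21 transcripts, mt-Co2 at chrM:7013-7092 on the plus strand, Gm28661 at chr1:24615486-24615565 and Gm13341 at chr2:22587883-22587962, both on the minus strand).

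mt-Co2: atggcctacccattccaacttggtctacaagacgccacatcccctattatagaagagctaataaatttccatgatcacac
Gm28661: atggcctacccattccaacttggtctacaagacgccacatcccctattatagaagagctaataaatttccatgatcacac
Gm13341: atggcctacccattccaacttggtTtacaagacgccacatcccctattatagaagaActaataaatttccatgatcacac

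Over its whole aligned length of 681 bases Gm28661 was 100% identical to mt-Co2, whereas Gm13341 was 95.9% identical over 684 bases. Of all 100-base windows of mt-Co2, 99.5% were also found letter for letter in a nuclear transcript. The share was 99.5% for mt-Atp6, 99.9% for mt-Co3, 97.6% for mt-Nd3 and 98.5% for mt-Nd4l. It was 60.8% for mt-Nd4 and 30.8% for mt-Co1, which reach into the stretch, 3.19% for mt-Nd2, and 0 for mt-Nd1, mt-Nd5, mt-Nd6, mt-Cytb and both rRNA genes. It was also 0 for mt-Atp8, which had 1 count in all libraries together and lies inside the stretch at the place where no transcript is annotated in the copy. The read length is not given in the sources used here. With 50-base windows the share was 62.2% for mt-Nd4, 51.1% for mt-Co1, 8.19% for mt-Nd2, 7.61% for mt-Nd5 and 1.04% for mt-Rnr2. It remained 0 for mt-Nd1, mt-Nd6, mt-Cytb, mt-Rnr1 and mt-Atp8. Reads that aligned to more than 1 place were tallied apart by the counting program and given to no gene. This tally stood at 0.730 to 1.14 per uniquely aligned read and was highest in the 2 sick KD libraries. Whether it counts each read once or each of its alignments is not given in the sources used here. A pseudogene of the chromosome 1 stretch had at most 9 counts in any library. Reads that align equally to a gene and its copy are counted for neither, so these counts do not show how many reads aligned to the copies. Whether the shared sequence accounts for the few counts of the 6 genes was not tested, and their low counts are no measure of their RNA.

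**Figure D1:**
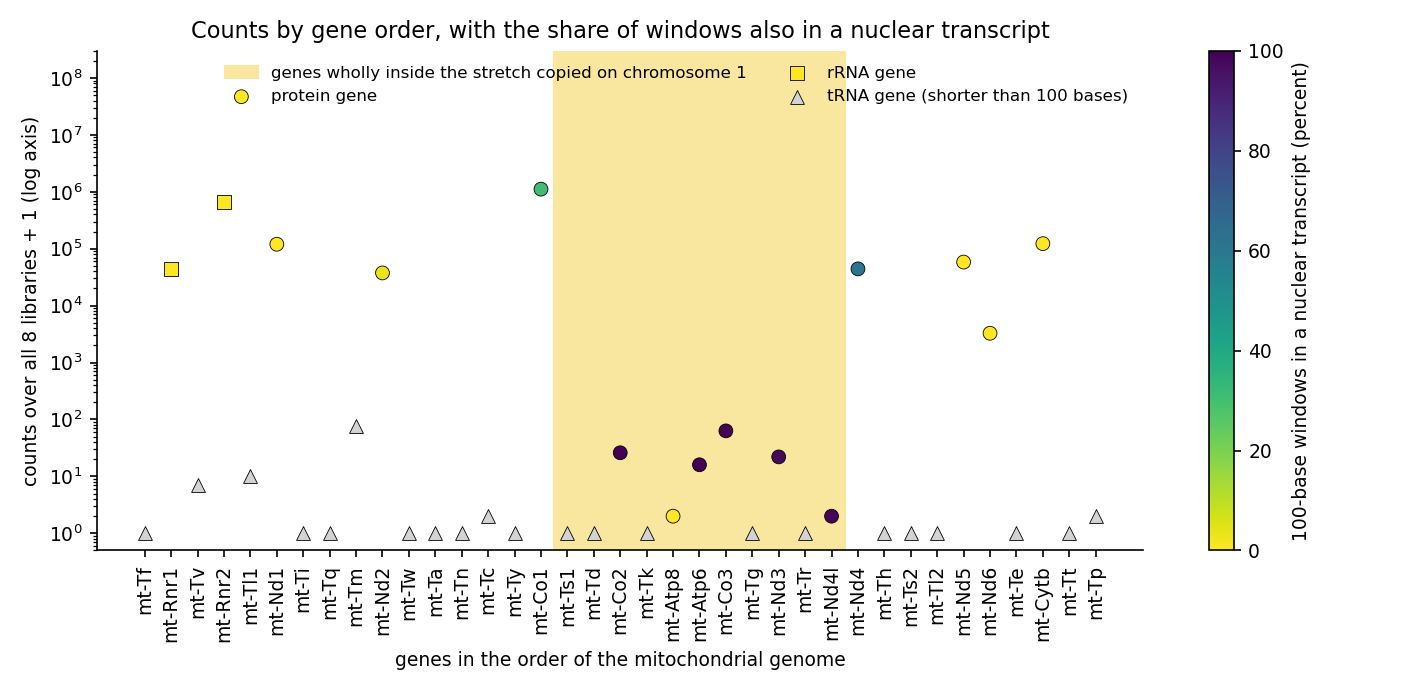
Counts over all 8 libraries plus 1 (log axis) for the 37 genes in their order on the mitochondrial genome. Circles are protein genes, squares rRNA genes and grey triangles tRNA genes, the colour scale gives the percent of 100-base windows also present in a nuclear transcript, and shading marks the 11 genes wholly inside the stretch copied on chromosome 1. Within the shading no gene exceeds 62 counts, whereas mt-Co1 and mt-Nd4 on either side have 1111850 and 44204.

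Copies elsewhere were less alike. A copy of the whole of mt-Co1 on chromosome 2, Gm13340, was 97.6% identical over 1545 bases and had 467 counts over all libraries, against 1111850 for mt-Co1. The first 80 bases of both (chrM:5328-5407, plus strand, and chr2:22589568-22589647, minus strand) show how few bases tell them apart, with the differing bases in capitals.

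mt-Co1: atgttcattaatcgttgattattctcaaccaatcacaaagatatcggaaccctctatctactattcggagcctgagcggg
Gm13340: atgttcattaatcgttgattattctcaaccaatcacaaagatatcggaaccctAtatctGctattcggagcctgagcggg

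The nearest copy of mt-Nd6 was 93.6% identical, that of mt-Cytb 92.9%, and those of mt-Nd5 92.3% and 95.2%, with 0 to 2 counts for each of these copies. No match of 100 bases or more was found for mt-Nd1, mt-Rnr1 or mt-Rnr2. Which nuclear genes hold the 50-base windows shared with mt-Rnr2 was not listed. Lars2, a nuclear gene for the mitochondrial leucyl-tRNA synthetase, likewise had no match of 100 bases or more in its annotated transcripts. Shorter matches of Lars2 were not looked up. Its level varied widely, with 22.5 and 33.0 CPM in sick KD, 22.7 and 189 in old KO, 57.9 and 48.9 in young KO and 8.40 and 9.74 in young KD. Lars2 was called higher in young KO than in young KD (log2 fold change 2.55 ± 0.13, adjusted p = 0.0047 with edgeR) and higher in sick KD than in young KD (1.61 ± 0.21, adjusted p = 0.0079 with edgeR).

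The 3′ ends of the measured mRNAs are of interest because the poly(A) tail is part of some of their stop codons. The last 30 bases of each coding gene are given with the stop codon, or the part of it that is encoded, in capitals (GRCm38, plus strand except mt-Nd6).

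mt-Nd1: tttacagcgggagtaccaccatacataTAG
mt-Nd2: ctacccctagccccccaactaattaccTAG
mt-Co1: gaggaaccaacctatgtaaaagtaaaaTAA
mt-Nd4: gtccaaaactaattacaggcctgacaataT
mt-Nd5: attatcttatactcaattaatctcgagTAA
mt-Nd6: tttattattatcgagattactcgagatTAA
mt-Cytb: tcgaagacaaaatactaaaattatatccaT

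In mt-Nd4 and mt-Cytb a single T is left of the stop codon and the tail completes it. The last 2 annotated bases of mt-Nd1 and of mt-Nd2 also lie in the next tRNA gene on the same strand, mt-Ti and mt-Tw. Where these mRNAs end was not examined. The ends of mt-Nd5 and mt-Nd6 overlap by 14 bases on opposite strands. The strand setting of the counting is not given in the sources used here, so counts of mt-Nd6 cannot be separated from RNA of the opposite strand.

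Levels between genes were compared per kb of gene length, as the mean CPM per kb over the 8 libraries. Among the protein genes the order was mt-Co1 with 2701, mt-Nd1 with 482, mt-Cytb with 411, mt-Nd2 with 142, mt-Nd5 with 129, mt-Nd4 with 125 and mt-Nd6 with 23.7. mt-Nd5 came before mt-Nd4 through the sick KD libraries, and mt-Nd4 was above mt-Nd5 in the other 6. Of the rRNA genes mt-Rnr2 had 1646 CPM per kb and mt-Rnr1 186. Per kb of 100-base windows without a nuclear copy, mt-Nd4 moved up in the order, to 342 CPM per kb, and mt-Co1 had 4172. Over the libraries mt-Nd2, mt-Nd5 and mt-Nd4 overlapped over the libraries, with 67.2 to 298 CPM per kb for mt-Nd2, 53.7 to 336 for mt-Nd5 and 63.1 to 249 for mt-Nd4. mt-Nd6, the sole protein gene on the minus strand, had the lowest level of the 9 in each library, at 15.3 to 34.7 CPM per kb.

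The first question was whether KO and KD mice differ before disease. Young KO and young KD mice had like levels of the mitochondrial genes. mt-Co1, the catalytic core of complex IV, was at 3820 and 4146 CPM in young KO and at 4048 and 3839 in young KD. mt-Nd5, a proton-pumping subunit of complex I, was at 170.0 and 148 CPM in young KO and 139 and 181 in young KD. The groups overlapped for both genes. The rRNA gene mt-Rnr2 was at 1847 and 1768 CPM in young KO, inside the range of young KD with 1389 and 2343. Of the 9 genes with at least 100 counts in every library, 0 passed an adjusted p of 0.05 in edgeR's quasi-likelihood test (0.0404% of 14839 genes tested did in either direction). The unadjusted p was under 0.05 for 0 of them, DESeq2 called 0, and log2 fold changes lay between -0.06 (mt-Rnr1, standard error 0.32) and 0.17 (mt-Nd6, standard error 0.13). The largest standard errors were those of the rRNA genes, whose levels differed between the 2 young KD mice, with 71.8 and 151 CPM for mt-Rnr1.

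**Figure D2:**
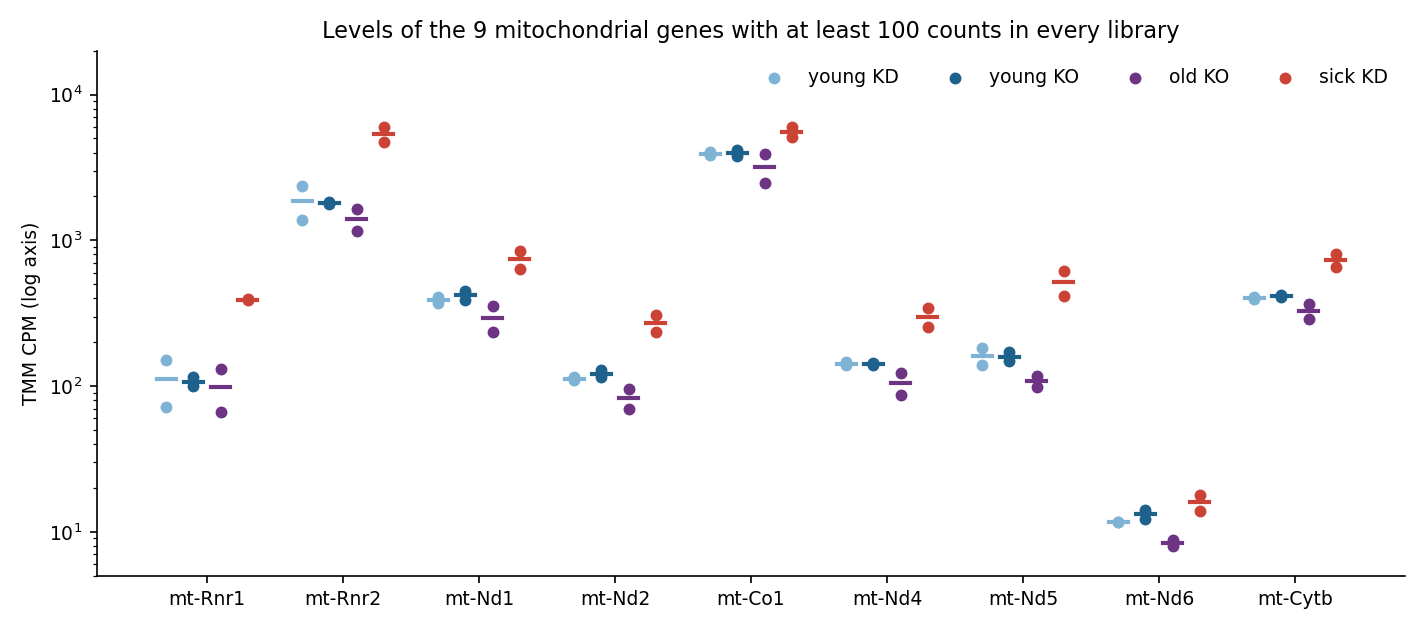
TMM CPM (log axis) of the 9 mitochondrial genes with at least 100 counts in every library. Points are single mice, short lines the means of 2 mice, and colours the groups; both sick KD mice lie above the other 6 mice for each gene except mt-Nd6.

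In sick KD mice the mitochondrial genes were higher than in young KD mice. mt-Nd5 was at 612 and 416 CPM in sick KD, above the 139 and 181 of young KD, and the fitted log2 fold change was 1.68 ± 0.22 (standard error, n = 2 per group; adjusted p = 0.0078 with edgeR). Both rRNA genes rose as well. mt-Rnr1 was at 396 and 388 CPM in sick KD against 71.8 and 151, with a log2 fold change of 1.81 ± 0.32 (adjusted p = 0.016, edgeR). This value was 2.42 without young KD 2 and 1.36 without young KD 1. mt-Rnr2 was at 5959 and 4717 CPM in sick KD against 1389 and 2343, with a log2 fold change of 1.51 ± 0.26 (adjusted p = 0.014, edgeR).

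Of the other complex I genes, mt-Nd2, mt-Nd4 and mt-Nd1 rose, with smaller log2 fold changes than mt-Nd5, although differences between genes were not tested. mt-Nd2 was at 309 and 235 CPM in sick KD and at 110 and 115 in young KD (log2 fold change 1.27 ± 0.15, standard error). mt-Nd4 was at 342 and 252 CPM against 139 and 145 (1.06 ± 0.16), and mt-Nd1, which joins the membrane arm to the peripheral arm, was at 847 and 639 against 369 and 408 (0.93 ± 0.16). mt-Cytb, the central subunit of complex III, was at 810 and 654 CPM against 398 and 409 (0.85 ± 0.14). The smallest of the called changes was that of mt-Co1, at 5989 and 5141 CPM in sick KD against 4048 and 3839 in young KD (0.49 ± 0.13, adjusted p = 0.042 with edgeR). mt-Nd6 did not pass the test, with 18.0 and 13.9 CPM in sick KD, 11.7 and 11.6 in young KD and a log2 fold change of 0.44 ± 0.17 (adjusted p = 0.11, edgeR).

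Of the 9 genes, 8 were thus called higher in sick KD, where 9.45% of 14656 genes tested were. Their median log2 fold change was 1.06, beside 0.01 over all genes tested. Without the young KD mouse 1, 5 members were called. mt-Tm entered the test only through its sick KD counts, so its log2 fold change of 2.06 ± 0.52 (adjusted p = 0.038, edgeR) is given for description only.

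**Figure D3:**
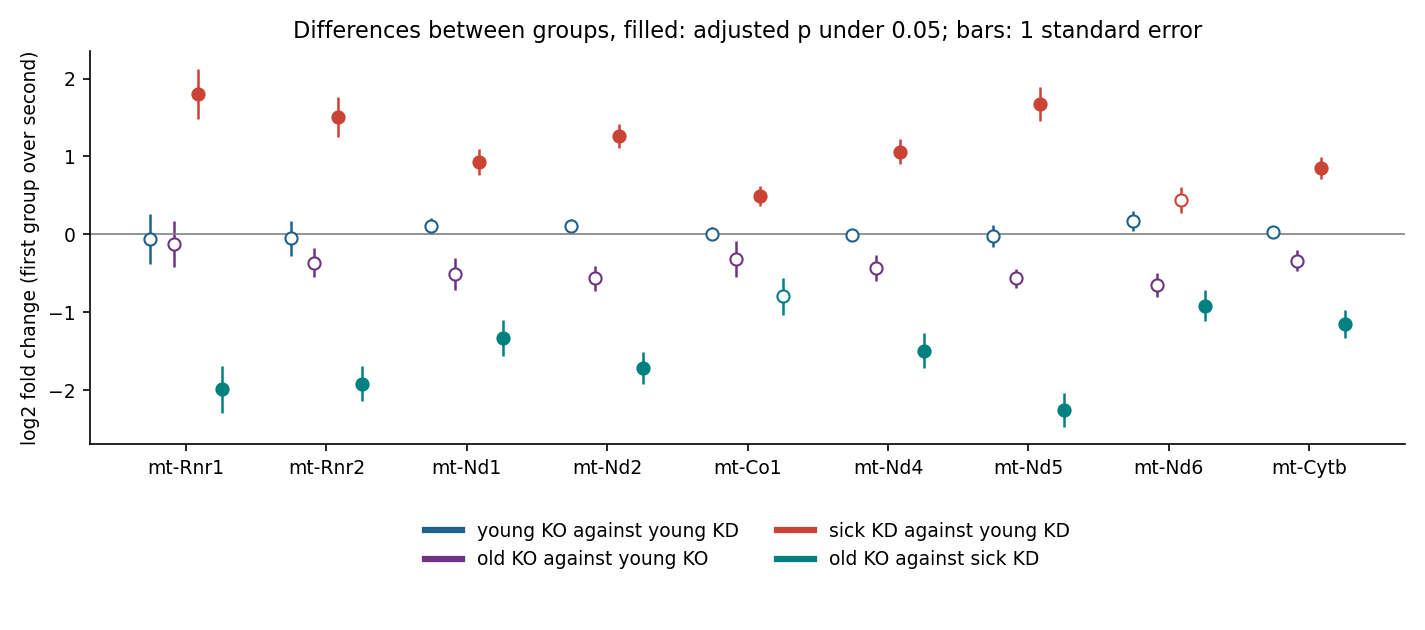
Log2 fold change of the 9 genes in 4 comparisons, first group over second, from edgeR fits on the 4 libraries compared. Bars are 1 standard error and filled points passed an adjusted p of 0.05; sick KD against young KD is above 0 for each gene, old KO against sick KD below 0 for each, and the 2 other comparisons have open points only. The 2 comparisons with sick KD share those libraries.

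Old KO mice, described as healthy, had lower mitochondrial levels than sick KD mice. mt-Nd5 was at 97.9 and 117 CPM in old KO, below both sick KD mice, and differed by a log2 fold change of -2.25 ± 0.22 (standard error, n = 2 per group; adjusted p = 0.0041 with edgeR). mt-Rnr1 was at 66.1 and 130 CPM in old KO (log2 fold change -1.99 ± 0.30) and mt-Rnr2 at 1163 and 1652 (-1.92 ± 0.23). The subunits of complex I followed in the same order as above, with mt-Nd2 at 69.7 and 95.1 CPM (-1.72 ± 0.20), mt-Nd4 at 86.9 and 124 (-1.49 ± 0.22) and mt-Nd1 at 235 and 355 (-1.33 ± 0.24). mt-Cytb was at 290 and 368 CPM in old KO (-1.15 ± 0.18).

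mt-Nd6 was called lower with the smallest change, at 7.96 and 8.83 CPM in old KO (log2 fold change -0.92 ± 0.20, adjusted p = 0.025 with edgeR). mt-Co1 missed the threshold, at 2480 and 3916 CPM in old KO (-0.80 ± 0.24, adjusted p = 0.060 with edgeR), although both old KO mice were below both sick KD mice. The value for mt-Tm was -1.40 ± 0.50 on the log2 scale (adjusted p = 0.096, edgeR), again with entry to the test through its sick KD counts. Of the 9 genes with at least 100 counts in every library, 8 were called lower in old KO (8.22% of 14470 genes tested were). The median over the 9 was -1.49, beside -0.0050 over all genes tested.

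Old KO and young KO mice were compared to see age without disease. No mitochondrial gene was called by edgeR (0 of 9, with 0.929% of 14847 genes called in either direction), although all 9 log2 fold changes were below 0, between -0.65 (mt-Nd6) and -0.13 (mt-Rnr1). Over all genes tested, 49.84% of log2 fold changes were above 0. An unadjusted p under 0.05 was found for 6 of the 9 with edgeR, but the share of all genes at that level was not computed. mt-Nd5 was at 97.9 and 117 CPM in old KO and at 170.0 and 148 in young KO, without overlap, and its log2 fold change was -0.56 ± 0.12 (adjusted p = 0.15 with edgeR). DESeq2 called 2 genes lower here, mt-Nd5 (adjusted p = 0.0039) and mt-Nd2 (adjusted p = 0.048). Over all genes it called 383 of 14847 in either direction. The older of the 2 old KO mice had lower levels, and all mitochondrial genes together held 0.464% of its counts and 0.675% of those of the other. With the older mouse alone in its group edgeR called 2 genes lower, mt-Nd2 and mt-Nd4, and with the other alone it called 0.

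The difference between KO and KD was itself tested for a change from the young pair of groups to the older pair, in all 8 libraries. This interaction passed the threshold for 7 of the 9 genes, each with a more negative difference in the older pair (3.11% of 15102 genes tested did in that direction). The log2 interaction was -2.24 ± 0.29 for mt-Nd5 (adjusted p = 0.011 with edgeR), -1.88 ± 0.36 for mt-Rnr2 and -1.84 ± 0.24 for mt-Nd2. mt-Rnr1 at -1.94 ± 0.52 (adjusted p = 0.061, edgeR) and mt-Co1 at -0.81 ± 0.28 (adjusted p = 0.11, edgeR) did not pass. Each of 5 libraries, when left out, reduced the calls to between 1 and 3 members, namely sick KD 1, old KO 1, young KO 1, young KO 2 and young KD 1. In levels, both sick KD mice were above the other 6 mice for 8 of the 9 genes, and for 24.6% of all genes kept in the fit.

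Summed over all 37 genes, protein genes of the mitochondrial genome held 0.830% and 0.686% of the counts in sick KD, 0.337% and 0.497% in old KO, 0.521% and 0.556% in young KO and 0.537% and 0.529% in young KD. The rRNA genes held 0.591% and 0.477% in sick KD, 0.127% and 0.178% in old KO, 0.202% and 0.190% in young KO and 0.150% and 0.258% in young KD. The tRNA genes summed to 6 to 28 counts per library. Sick KD was above the other groups for both large classes, and the gap was wider for the rRNA genes. There were 0.712 and 0.694 rRNA gene counts per protein gene count in sick KD, 0.376 and 0.358 in old KO, 0.388 and 0.343 in young KO and 0.280 and 0.488 in young KD. The sick KD mice did not overlap with the other 6 in this ratio, while the 2 young KD mice spanned all of those. With 2 mice per group the smallest two-sided p that an exact permutation test of such a value allows is 0.33, and none was made.

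**Figure D4:**
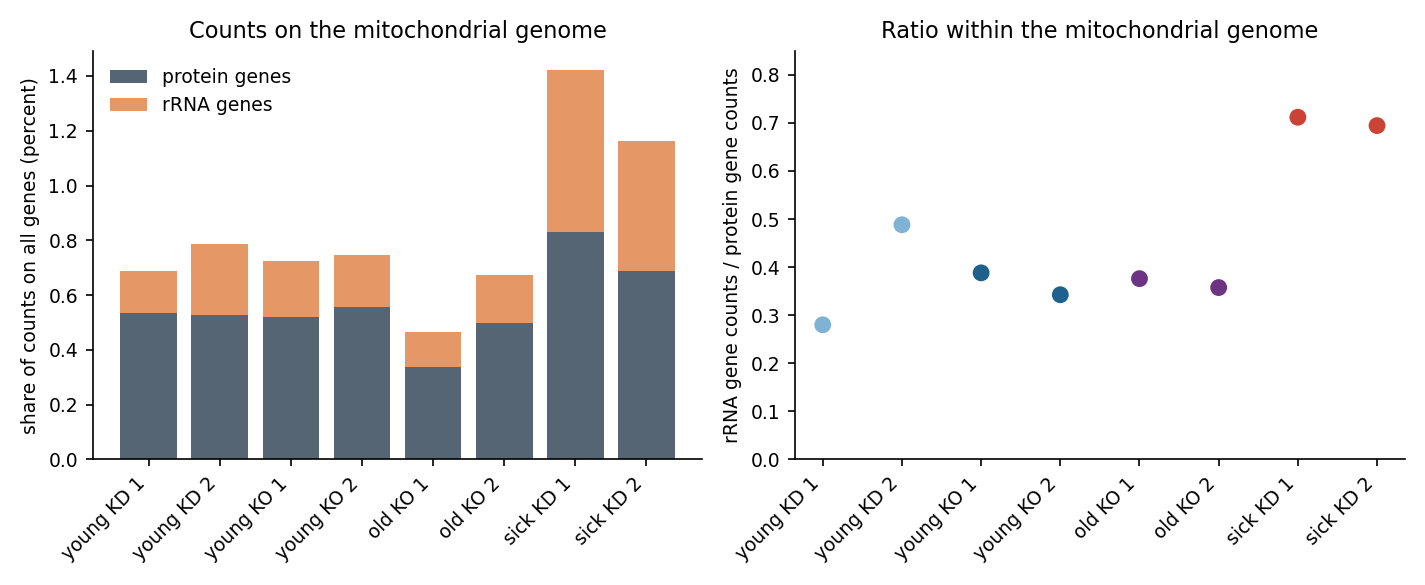
Left, percent of the counts on all genes that fell on protein genes (grey) and rRNA genes (orange) of the mitochondrial genome in each of the 8 libraries, as stacked bars from 0. Right, rRNA gene counts per protein gene count in each library; the sick KD libraries stand at 0.712 and 0.694 and the others between 0.280 and 0.488.

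The mitochondrial counts also had another make-up in sick KD, so that the genes did not differ by a common factor. mt-Rnr2 made up 37.9% to 39.0% of them in sick KD and 20.8% to 30.8% in the other 6 libraries. mt-Co1 made up 39.2% to 41.3% in sick KD and 50.5% to 60.6% in the others. Sick KD was above the range of the others for 4 genes, mt-Rnr1, mt-Rnr2, mt-Nd2 and mt-Nd5, below it for 3, mt-Co1, mt-Nd6 and mt-Cytb, and overlapped with it for mt-Nd1 and mt-Nd4. These shares sum to 100% and are not independent of each other. Among the protein genes alone, mt-Nd5 had 10.2% and 8.09% as many counts as mt-Co1 in sick KD and 2.99% to 4.72% in the others. mt-Nd6 had 2.94% and 3.33% as many counts as mt-Nd5 in sick KD and 6.42% to 9.60% in the others. The old KO values were 3.95% and 2.99% for the first ratio and 8.13% and 7.54% for the second.

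**Figure D5:**
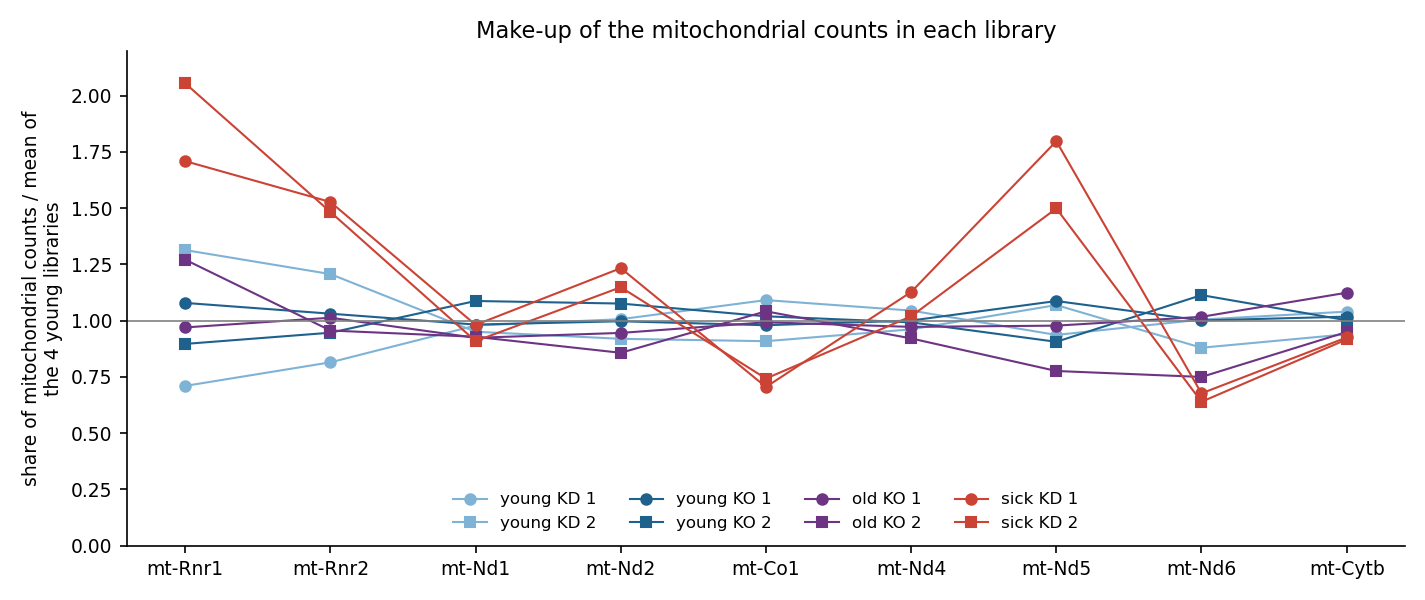
Share of the mitochondrial counts held by each of the 9 genes, divided by its mean over the 4 young libraries (1 on the axis), 1 line per library. The sick KD lines run from 1.71 and 2.06 at mt-Rnr1 down to 0.706 and 0.743 at mt-Co1, up to 1.80 and 1.50 at mt-Nd5 and down to 0.677 and 0.640 at mt-Nd6.

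Nuclear genes that make or keep mitochondrial RNA were counted in the same tests, in which 8.22% of all genes were lower and 9.93% higher in old KO than in sick KD, and 9.45% were higher and 11.4% lower in sick KD than in young KD. Of 10 genes for mitochondrial transcription, 1 was lower and 0 were higher in old KO than in sick KD. This was Tfb2m, a transcription initiation factor, at 11.3 and 12.9 CPM in old KO and 18.5 and 18.2 in sick KD (log2 fold change -0.60 ± 0.16, adjusted p = 0.046 with edgeR). Tfb2m was also higher in sick KD than in young KD (0.51 ± 0.13, adjusted p = 0.038 with edgeR). Tfam, which packages mitochondrial DNA and starts transcription, went the other way, at 40.5 and 35.3 CPM in sick KD against 52.1 and 53.8 in young KD (-0.49 ± 0.12, adjusted p = 0.033 with edgeR). The median log2 fold change of the 10 was -0.30 in old KO against sick KD. Mterf2, named after its values were seen, was the other gene of the list that was lower in sick KD than in young KD (-1.28 ± 0.22). The polymerase Polrmt was at 23.0 to 30.5 CPM over the 8 libraries and passed neither test.

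Of 27 genes for processing and stability of mitochondrial RNA (median log2 fold change -0.11), 2 were lower in old KO than in sick KD (over all genes, 8.22%). These were Tbrg4 (log2 fold change -0.49 ± 0.11), a protein of the FASTK family, and Hsd17b10 (-0.42 ± 0.11), a subunit of mitochondrial RNase P. In sick KD against young KD 3 of the 27 were higher (over all genes, 9.45%), these 2 and Trub2, which was named after its values were seen. Lrpprc was at 128 to 150 CPM and Slirp at 29.5 to 35.0 CPM over the 8 libraries, and neither passed a test. Mtpap was at 62.0 and 50.2 CPM in sick KD, 38.1 and 42.4 in old KO and 43.0 to 46.1 in the young mice (old KO against sick KD -0.47 ± 0.14, adjusted p = 0.059 with edgeR).

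For the lists that follow, 8.22% of all genes were lower and 9.93% higher in old KO than in sick KD. Against young KD, 9.45% of all genes were higher and 11.4% lower in sick KD. Of 13 genes for replication of mitochondrial DNA, 1 was higher in old KO than in sick KD, the nuclease Exog (log2 fold change 0.78 ± 0.18). Against young KD 2 of the 13 were lower in sick KD. Of 8 tested regulators of mitochondrial biogenesis 2 were higher in old KO, Esrra (0.65 ± 0.15), a nuclear receptor, and Yy1 (0.56 ± 0.12). Against young KD, 3 of 9 regulators were lower in sick KD, these 2 and Ppargc1a (-1.95 ± 0.41), and 2 were higher, Myc (0.71 ± 0.19) and Pprc1 (0.59 ± 0.16). The last 3 were named after their values were seen. Ppargc1a, at 0.242 and 0.249 CPM in sick KD and 1.12 and 0.784 in young KD, entered this test only through its young KD counts. Its change is given for description only. Of 17 genes for proteins of mitochondrial membranes and matrix, 1 was lower, the import channel Timm23 (-0.49 ± 0.11), and 1 higher, the chaperone Hspd1 (0.54 ± 0.12), while against young KD 2 were higher and 1 lower in sick KD. The nuclear-encoded subunits of complexes I, III, IV and V, the partners of the mitochondrial proteins, were called lower in old KO in 5 of 77 cases and higher in 0 (over all genes, 8.22% and 9.93%), with Ndufb4 (-0.56 ± 0.12), Ndufb11 (-0.51 ± 0.13), Ndufv2 (-0.49 ± 0.12) and Ndufs8 (-0.49 ± 0.14) foremost. Against young KD, 14 of 77 were higher in sick KD and 1 was lower (over all genes, 9.45% and 11.4%). The median log2 fold change of these subunits was -0.18 in old KO against sick KD and 0.23 in sick KD against young KD, beside -1.33 and 0.93 for the 7 protein genes of the mitochondrial genome.

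Other RNA moved with the sick KD libraries. Of 4 nuclear RNAs without a poly(A) tail, Rmrp, Rpph1, Rn7sk and Terc, 4 were lower in old KO than in sick KD (median log2 fold change -1.46) and 4 were higher in sick KD than in young KD (median 1.33). Rn7sk, which holds back the elongation factor P-TEFb, was at 19497 and 28003 CPM in sick KD and at 7869 to 10014 in the other 6 libraries. The 4 summed to 32730 and 45680 CPM in sick KD and to 12880 to 16180 in the others. mt-Rnr2 and the protein genes with at least 100 counts in every library were higher in sick KD 1 than in sick KD 2. mt-Rnr1 was nearly equal in them, at 396 and 388 CPM, and mt-Tm was higher in sick KD 2, at 0.444 and 0.818 CPM. The 4 RNAs without a poly(A) tail were higher in sick KD 2. The part of these RNAs, and of the larger share of reads outside genes, in the mitochondrial result was not tested.

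Cell type markers differed between groups as well. Over all genes, 8.22% were lower and 9.93% higher in old KO than in sick KD, and 9.45% were higher and 11.4% lower in sick KD than in young KD. All 5 B cell markers were lower in sick KD than in young KD, with a summed level of 26.1 to 56.6 CPM in sick KD, 78.9 to 111 in old KO and 306 to 437 in the young mice. All 4 erythroid markers were higher in old KO than in sick KD, with 509 to 779 CPM in sick KD, 2335 to 3591 in old KO and 1058 to 3132 in the young mice. Of 7 neutrophil markers 3 were lower in old KO than in sick KD, and 1 was higher in sick KD than in young KD. The 7 summed to 5568 to 7197 CPM in sick KD against 2895 to 4091 in the other 6 libraries. S100a8 and S100a9 in sick KD 2, at 645 and 285 CPM, were not above both young KD mice. Macrophage markers were higher in old KO than in sick KD for 2 of 3, at 189 to 218 CPM in sick KD and 260 to 322 in old KO. In the same comparison 1 of 4 T and NK cell markers was higher, and 0 of 4 monocyte, 0 of 3 megakaryocyte and 0 of 3 stem and progenitor markers passed the test in edgeR. Against young KD, 4 of 4 erythroid, 2 of 3 macrophage and 2 of 4 T and NK cell markers were lower in sick KD. In that comparison 1 of 4 monocyte markers was higher, and 0 of 3 megakaryocyte and 0 of 3 stem and progenitor markers passed. No marker was at 0 in all libraries, and the part of cell make-up in the mitochondrial result was not tested.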

How the data were processed

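RNA-seq of total BM from 8 mice was analysed. The authors aligned paired-end reads of stranded poly(A) libraries to mm10 (GRCm38) with TopHat 2.0.10 and deposited raw HTSeq counts per Ensembl gene, without normalization, with 5 tallies of reads not given to a gene. The HTSeq mode and strand setting are not given in the sources used here. Symbols, coordinates and sequences came from GENCODE M21 (40254 of 41214 identifiers had a symbol). Tests used the edgeR package 4.0.16 (R 4.3.3; TMM, filterByExpr by group, quasi-likelihood test, Benjamini-Hochberg over all genes tested, threshold 0.05), each pair of groups on its own 4 libraries and the interaction on all 8. Depth was 26642067 to 42679114 counts per library, and n = 2 per group limits precision more than counting. CPM values used TMM factors of all 8 libraries. The fits were tested on simulated data. Nuclear copies were sought with BLAST 2.17.0 in 141730 GENCODE transcripts (at least 100 bases at 90% identity). No genome sequence was used. Replicates within a group differed beyond sampling noise. Alternatives were DESeq2 1.42.0, other scalings and filters, and leaving out each mouse. Named were all protein and rRNA genes, mt-Tm as the tRNA gene that passed a filter, up to 4 called genes per list in old KO against sick KD, and Polrmt, Tfam, Lrpprc, Slirp, Mtpap and Lars2. The members and lists were chosen with earlier results of these data known.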

Additional observations from a re-analysis of the deposited data

Results flagged for a closer look

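The difference between KO and KD changed from the young groups to the older groups for 7 mitochondrial genes, by an interaction test in all 8 libraries (edgeR, adjusted p under 0.05). The log2 interaction, the old KO minus sick KD difference less the young KO minus young KD difference, was -2.24 for mt-Nd5, -1.88 for mt-Rnr2, -1.84 for mt-Nd2, -1.50 for mt-Nd4, -1.44 for mt-Nd1, -1.19 for mt-Cytb and -1.10 for mt-Nd6. mt-Nd5 kept its call under each of 15 alternatives and mt-Nd2 under 14 of 15, whereas mt-Nd6 lost it under 8 of 15. In young mice these 7 genes differed between KO and KD by log2 fold changes of -0.05 to 0.17, and none of them was called there. No groups were large enough to look for single outlying mice.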

How the results depend on the processing

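Calls of single members were recomputed under combinations of gene, comparison and alternative. Of them, 10 are for mt-Tm in sick KD against young KD, which entered the main test only through its sick KD counts. Counts of members called below include mt-Tm where it was tested. There were 307 combinations in all. Of these 265 kept the call, 42 lost it and 0 turned in direction. In old KO against sick KD, 7 to 9 members were called under each alternative, and only mt-Nd6 lost its call. In sick KD against young KD the count was 5 to 9 with 1 mouse left out. For old KO against young KO, where edgeR called 0, DESeq2 called 2, edgeR without a filter beyond 1 count called 5 (among more genes tested), and leaving out 1 mouse gave 0 to 2. The interaction count was 1 to 8 with 1 mouse left out. With 1 mouse left out, the lone mouse of a group was assumed to vary like the others. Taking all uniquely aligned reads as library size moved the median log2 fold change of all genes to 0.37 in old KO against sick KD and to -0.34 in sick KD against young KD. Relative to this shift directions held, but mt-Nd6 in the first (-0.54) and mt-Co1 in the second (0.13) lost their calls. The log2 ratio of the mitochondrial share of counts was -0.0041 for young KO over young KD (-0.0991 to 0.0975 with 1 mouse left out), -0.37 for old KO over young KO (-0.66 to -0.12), and 0.81 for sick KD over young KD, or 0.60 of all uniquely aligned reads; the cause was not tested. No paired analysis was possible because each mouse has an own number in the labels that no other group repeats. Among the tRNA genes mt-Tm had enough counts to be tested, and the reported comparisons did not test the 6 protein genes with few counts. The cause of the few counts of these tRNA and protein genes was not tested.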

Other observations

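Among the 4 young mice, the rRNA share of the mitochondrial counts was 21.9% in young KD 1, 25.5% in young KO 2, 28.0% in young KO 1 and 32.8% in young KD 2. The summed level of 4 erythroid markers was 3132, 2700, 1058 and 1141 CPM in the same order, higher in the 2 mice with the lower rRNA share. The old KO mice had 27.3% and 26.3% at 3591 and 2335 CPM. These are values of 4 and 2 mice, with no test.

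The 2 rRNA genes lie side by side with mt-Tv between them, and mt-Rnr2 had 12.2 to 19.3 counts per count of mt-Rnr1 over the 8 libraries, without separation of the groups (12.2 and 15.1 in sick KD, 12.7 and 17.6 in old KO).

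Lars2 was at 189 CPM in old KO 2 and at no more than 57.9 CPM in the other 7 libraries. The mitochondrial share of counts in that mouse was 0.675%, within the range of 0.464% to 0.787% of the other 5 libraries that are not sick KD.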
